A study of Mus musculus with 12 samples.

Results

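Abi3bp, Cpe and Slc15a3 are 3 of 22180 genes named by a single symbol on these arrays. They were selected on their log2 difference of iNKT17 over ROR- cells, as large rises outside the usual lists of type 17 genes, so that difference is given below as a description and carries no test. Each gene was read by 1 probe set: 17326318 for Abi3bp, 17509617 for Cpe and 17357597 for Slc15a3. RNA of mouse cells had been hybridised to 12 Affymetrix whole-transcript arrays in 5 groups: iNKT17 cells of BALB/c mice (3 arrays) and of B6 mice (2 arrays), gamma-delta 17 cells of B6 mice (2 arrays), and ROR- cells of BALB/c mice (3 arrays) and of B6 mice (2 arrays). The labels give strain and cell phenotype only; they name no treatment, age, organ or genetic change, they do not say what the ROR- cells are beyond that name, and the protocol speaks of frozen tissue. The design text asks how iNKT cells of B6 and BALB/c mice differ.

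Abi3bp encodes a secreted protein of the extracellular matrix, first known as a partner of the SH3 domain of Abi3, an adaptor related to the subunits of the actin-regulating WAVE complex. Cpe encodes carboxypeptidase E, which trims basic residues from the ends of peptide hormone and neuropeptide intermediates after a convertase such as Pcsk1 or Furin has cut the precursor; it is best known from endocrine cells and neurons. Slc15a3 encodes a proton-coupled transporter of histidine and short peptides in the membrane of endosomes and lysosomes, where bacterial cell wall fragments and nucleic acids meet innate sensors, and it is best known from macrophages and dendritic cells. Invariant NKT cells and gamma-delta T cells of the type 17 kind make IL-17 early in a response and carry the receptors for IL-23 and IL-1.

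Values are on the deposited log2 scale, and every comparison of levels is within 1 gene. Overlap of arrays between groups is description from 2 or 3 arrays in a group, and its share over all genes was not counted. Array medians over all probe sets ranged from 4.10 to 4.30, and the lowest correlation between replicates of a group, across probe sets, was 0.973 in BALB/c ROR- cells and 0.981 to 0.985 in the other groups. The T cell receptor subunit gene Cd3e lay between 11.09 and 11.75 on every array. The type 17 receptor gene Il23r was at 9.53 or above on the iNKT17 and gamma-delta 17 arrays and at 3.67 or below on the ROR- arrays other than BALB/c replicate 2, where it was 7.0. That array stood apart: 18 type 17 genes averaged 7.0 on it, whereas they averaged 6.03 and 6.02 on replicates 1 and 3 of BALB/c ROR- cells. On B6 gamma-delta 17 replicate 1 the summed linear level of 10 neutrophil and mast cell markers was 1365, whereas it was at most 157 on each of the other 11 arrays. Of that list, the mast cell genes Cpa3, Mcpt4 and Fcer1a lay below 3.45, the 30th percentile of named probe sets, on every array. Genes of type 1 cells, 14 in all, averaged 6.32 on gamma-delta 17 replicate 1, against 5.33 on gamma-delta 17 replicate 2. Klrd1, which is among them, was 6.03 against 3.69. Differences of the 3 genes that rest on these arrays are given with and without them. For related genes, the gamma-delta 17 over ROR- calls of Abi3, Itgb5, Itga5, Cpd, Pcsk1, Vipr1, Nod1, Zp1 and Cd6 given below each passed without gamma-delta 17 replicate 1.

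Abi3bp was high in every type 17 group and low in ROR- cells. It measured 9.72, 9.23 and 9.59 on the BALB/c iNKT17 arrays, and 9.24 and 8.62 on the B6 iNKT17 arrays. The B6 gamma-delta 17 arrays gave 9.33 and 9.52. The BALB/c ROR- arrays gave 4.03, 6.38 and 3.94, and the B6 ROR- arrays 3.95 and 3.70. All type 17 arrays lay above all ROR- arrays by more than 2 log2 units. By group mean the order was BALB/c iNKT17 (9.51 ± 0.26, SD, n = 3), B6 gamma-delta 17 (9.43 ± 0.13, n = 2), B6 iNKT17 (8.93 ± 0.44, n = 2), BALB/c ROR- (4.78 ± 1.38, n = 3) and B6 ROR- (3.82 ± 0.18, n = 2). The arrays of BALB/c iNKT17 cells overlapped those of B6 iNKT17 and of gamma-delta 17 cells, and both ROR- groups overlapped each other. The single high ROR- value, 6.38, was that of BALB/c replicate 2, where Abi3bp stood 2.40 above the mean of its group's other arrays.

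Cpe was also high in the type 17 groups, but its level was unequal among them. It measured 5.81, 7.48 and 6.25 on the BALB/c iNKT17 arrays, and 8.56 and 8.42 on the B6 iNKT17 arrays. The B6 gamma-delta 17 arrays gave 7.52 and 7.84. The BALB/c ROR- arrays gave 3.73, 3.59 and 3.20, and the B6 ROR- arrays 2.99 and 3.74. All type 17 arrays lay above all ROR- arrays, BALB/c iNKT17 replicate 1 by the narrowest margin. By group mean the order was B6 iNKT17 (8.49 ± 0.10, n = 2), B6 gamma-delta 17 (7.68 ± 0.22, n = 2), BALB/c iNKT17 (6.51 ± 0.87, n = 3), BALB/c ROR- (3.51 ± 0.28, n = 3) and B6 ROR- (3.36 ± 0.53, n = 2). The arrays of the 3 type 17 groups did not overlap one another, although the highest BALB/c iNKT17 array (7.48) and the lowest gamma-delta 17 array (7.52) were almost level, and the ROR- groups overlapped. Cpe in ROR- cells lay around the dim level of 3.45, the 30th percentile of named probe sets, so the size of any fold change over ROR- cells is uncertain for this gene. On BALB/c ROR- replicate 2, Cpe stood only 0.13 above the mean of the other arrays of its group.

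Slc15a3 was high in every type 17 group, with its highest arrays in B6 iNKT17 cells. It measured 8.82, 9.08 and 9.01 on the BALB/c iNKT17 arrays, and 9.67 and 9.26 on the B6 iNKT17 arrays. The B6 gamma-delta 17 arrays gave 8.85 and 9.03. The BALB/c ROR- arrays gave 3.98, 5.26 and 4.34, and the B6 ROR- arrays 4.20 and 3.87. All type 17 arrays lay above all ROR- arrays by more than 3 log2 units. By group mean the order was B6 iNKT17 (9.46 ± 0.29, n = 2), BALB/c iNKT17 (8.97 ± 0.13, n = 3), B6 gamma-delta 17 (8.94 ± 0.13, n = 2), BALB/c ROR- (4.53 ± 0.66, n = 3) and B6 ROR- (4.04 ± 0.23, n = 2). B6 iNKT17 cells lay above the other type 17 groups without overlap, BALB/c iNKT17 and gamma-delta 17 cells overlapped, and so did both ROR- groups. Slc15a3 stood 1.10 higher on BALB/c ROR- replicate 2 than on the other arrays of that group. In RNA of whole populations, fewer cells that carry a transcript and less of it per cell cannot be told apart.

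**Figure D1:**
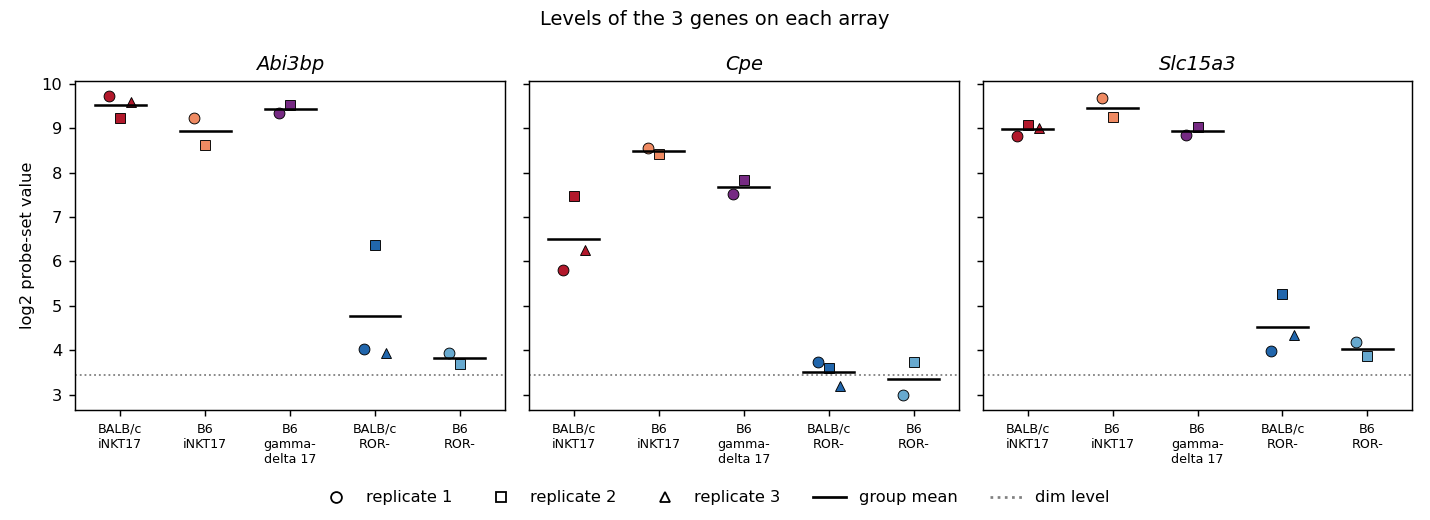
Level of Abi3bp, Cpe and Slc15a3 on each array (vertical axis, log2 probe-set value) in the 5 groups; symbols give the replicate number, bars the group mean, and the dotted line the dim level of 3.45. All type 17 arrays lie above all ROR- arrays for each gene, BALB/c ROR- replicate 2 lies high for Abi3bp (6.38) and Slc15a3 (5.26), and Cpe is lower in BALB/c iNKT17 (mean 6.51) than in B6 iNKT17 cells (mean 8.49).

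The values that chose the genes were as follows. In iNKT17 minus ROR- cells, as the mean of both strains, the log2 difference was 4.92 ± 0.40 for Abi3bp, 4.07 ± 0.28 for Cpe and 4.93 ± 0.21 for Slc15a3 (limma estimate ± SE). Leaving aside predicted and clone-named genes, Slc15a3 ranked 5 among all rises, Abi3bp 6 and Cpe 10. Il23r led that order at 6.06, and the genes just beyond Cpe were Stab2 at 3.88, Cdh10 at 3.83 and Gja1 at 3.80. In that comparison 12.3% of the 16667 genes tested passed the threshold, an adjusted p of 0.05, with 6.49% higher and 5.81% lower in iNKT17 cells. By strain, the difference for Abi3bp was 4.73 ± 0.50 in BALB/c and 5.10 ± 0.61 in B6, for Cpe 3.01 ± 0.35 in BALB/c and 5.13 ± 0.43 in B6, and for Slc15a3 4.44 ± 0.26 in BALB/c and 5.43 ± 0.32 in B6. Without BALB/c ROR- replicate 2 the mean of both strains was 5.32 for Abi3bp, 4.09 for Cpe and 5.12 for Slc15a3, and the BALB/c difference was 5.53 for Abi3bp, 4.81 for Slc15a3 and 3.05 for Cpe.

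Strain was not part of the choice and was tested across all genes with limma. Cpe was lower in BALB/c than in B6 iNKT17 cells, by -1.97 ± 0.39 on the log2 scale (95% interval -2.83 to -1.12, adjusted p = 0.0315, a 3.93-fold difference), and all 3 BALB/c arrays lay below both B6 arrays. Of all genes tested, 1.48% passed in this comparison. The call for Cpe was close to the threshold: adjusted p was 0.0504 with a trended, robust variance and 0.127 when only the iNKT17 groups were fitted. It was 0.0970 without BALB/c iNKT17 replicate 1, 0.128 without replicate 3, 0.140 without B6 iNKT17 replicate 1 and 0.236 without B6 iNKT17 replicate 2, with estimates between -2.04 and -1.62. Without BALB/c iNKT17 replicate 2, the highest of its group, the difference was -2.46 and adjusted p was 0.000965. The estimate was 0.59 ± 0.56 for Abi3bp (interval -0.64 to 1.82, adjusted p = 0.745), opposite in sign to Cpe, and -0.49 ± 0.29 for Slc15a3 (interval -1.13 to 0.15, adjusted p = 0.558), of the same sign as Cpe. Neither passed the threshold, and these intervals reach beyond 1 log2 unit.

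In ROR- cells no strain difference of the 3 genes passed limma's test, and none had an unadjusted p under 0.05 either, where 1.22% of all genes passed. The BALB/c minus B6 estimate was 0.96 ± 0.56 for Abi3bp (interval -0.27 to 2.19, adjusted p = 0.531), 0.14 ± 0.39 for Cpe (interval -0.72 to 1.0, adjusted p = 0.923) and 0.49 ± 0.29 for Slc15a3 (interval -0.15 to 1.14, adjusted p = 0.539). Without BALB/c ROR- replicate 2 these were 0.16 for Abi3bp, 0.10 for Cpe and 0.13 for Slc15a3.

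Whether the iNKT17 rise itself differed by strain was tested as the interaction, the BALB/c minus the B6 difference of iNKT17 over ROR- cells, in which 0.084% of all genes (14) passed. Cpe gave -2.12 ± 0.56 (interval -3.33 to -0.90), with an unadjusted p of 0.00265 and an adjusted p of 0.502 from limma, not past the threshold. Counted from the most negative, Cpe ranked 3 of the 16667 genes. That rank is description, because the interaction is built from the rises in each strain, on which the genes were chosen. Without BALB/c iNKT17 replicate 2 the Cpe interaction was -2.60 with an adjusted p of 0.0256. Slc15a3 gave -0.98 ± 0.42 (interval -1.89 to -0.07), with an unadjusted p of 0.0366 and an adjusted p of 0.999 from limma. Abi3bp gave -0.37 ± 0.79 (unadjusted p = 0.649, adjusted p = 0.999). Without BALB/c ROR- replicate 2 the interaction was -2.07 for Cpe and -0.62 for Slc15a3, and that of Abi3bp changed sign, to 0.43.

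B6 iNKT17 cells averaged lower in Abi3bp and higher in Cpe and Slc15a3 than gamma-delta 17 cells of B6 mice. No difference passed the threshold. The B6 iNKT17 minus gamma-delta 17 difference was -0.50 ± 0.61 for Abi3bp (interval -1.85 to 0.84, adjusted p = 0.852), 0.81 ± 0.43 for Cpe (interval -0.13 to 1.75, adjusted p = 0.646) and 0.52 ± 0.32 for Slc15a3 (interval -0.18 to 1.23, adjusted p = 0.697). None passed limma's test, 0 had an unadjusted p under 0.05, and 0.168% of all genes (28) passed; with 2 arrays in each group the intervals span more than 1 log2 unit for every gene. Without gamma-delta 17 replicate 1 the differences were -0.60 for Abi3bp, 0.65 for Cpe and 0.43 for Slc15a3. Over B6 ROR- cells, the gamma-delta 17 difference was 5.60 ± 0.61 for Abi3bp, 4.32 ± 0.43 for Cpe and 4.90 ± 0.32 for Slc15a3. Beside these, B6 iNKT17 minus ROR- gave 5.10, 5.13 and 5.43 for the same genes, but both comparisons use the same ROR- arrays, which also took part in the choice, so no test is attached. In that gamma-delta 17 comparison 6.02% of all genes passed, 2.61% higher and 3.41% lower. Gamma-delta 17 replicate 1 was the array with the high sum of neutrophil and mast cell markers. Without it the difference over ROR- cells was 5.70 for Abi3bp, 4.47 for Cpe and 4.99 for Slc15a3.

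**Figure D2:**
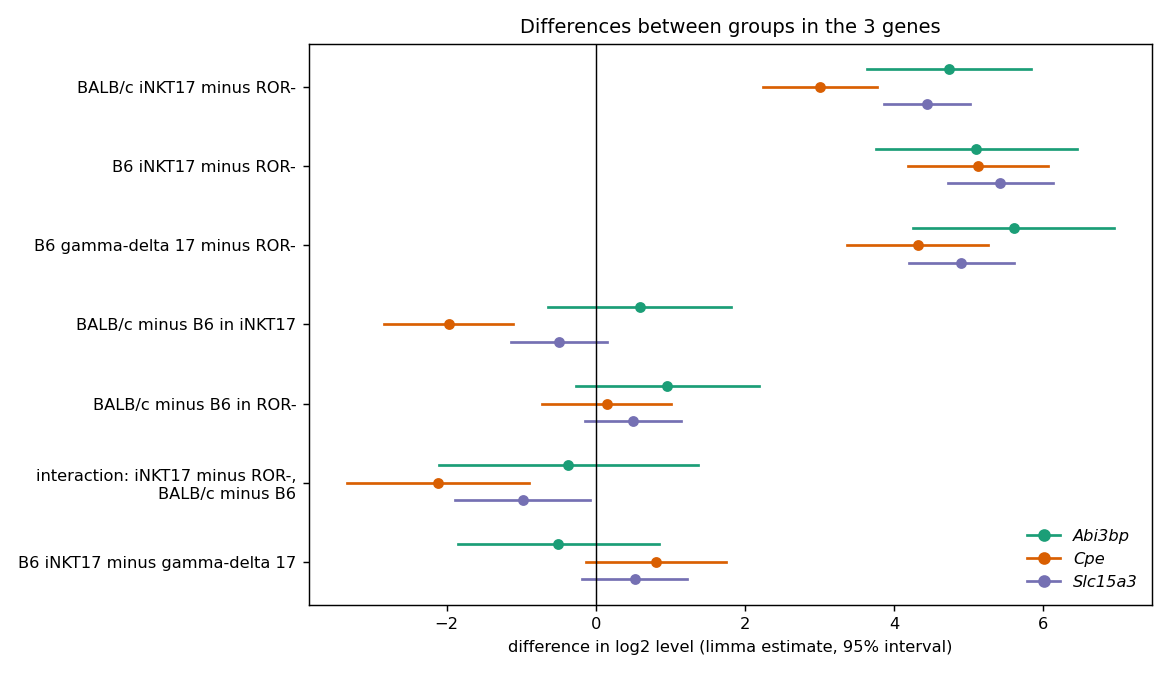
Differences between groups for the 3 genes (horizontal axis, log2, limma estimate with its 95% interval), each named as first group minus the other. The rises over ROR- cells at the top chose the genes or share arrays with that choice and are descriptive; of the tested differences below, only the lower Cpe in BALB/c iNKT17 cells (-1.97) passed the threshold.

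By pattern over arrays, Abi3bp and Cpe were the furthest apart of the 3 genes, and Slc15a3 was among the 5 genes nearest to each. Likeness was measured as the root mean square difference between genes over the 12 arrays, after each gene's own mean was taken off, and it describes these arrays without a test. Abi3bp and Slc15a3 differed by 0.538 and Cpe and Slc15a3 by 0.816, while Abi3bp and Cpe differed by 1.23. Closer to Abi3bp than Cpe lay 23 genes, and closer to Cpe than Abi3bp lay 60. The genes nearest to Abi3bp were Il1r1 (0.315), the receptor for IL-1, Pram1 (0.394), an adaptor protein, Blk (0.451), a kinase of the Src family, Serpinb1a (0.458), an inhibitor of serine proteases, and Slc15a3. Those nearest to Slc15a3 were Pram1 (0.319), Serpinb1a (0.430), Abi3bp, Il1r1 (0.539) and the cadherin gene Cdh10 (0.580). Those nearest to Cpe were Upp1 (0.602), which encodes uridine phosphorylase, Gja1 (0.615), which encodes the gap junction protein connexin 43, Cdh10 (0.707), Zp1 (0.715), known as a gene of the egg coat, and Slc15a3. All of these genes are themselves high in the type 17 groups, a contrast that the measure includes. The measure also includes strain differences and the levels of single arrays, so likeness in these is part of how the genes were picked.

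The genes nearest to Cpe differed in their order within BALB/c iNKT17 cells. Gja1 gave 6.08, 8.16 and 7.35 on the BALB/c iNKT17 arrays and 8.22 and 8.57 on the B6 iNKT17 arrays. Upp1 gave 7.69, 8.77 and 8.27 on the BALB/c iNKT17 arrays and 9.21 on both B6 iNKT17 arrays. In all of Cpe, Gja1 and Upp1, BALB/c replicate 1 was the lowest and replicate 2 the highest of the BALB/c iNKT17 arrays. Cdh10 gave 6.48, 6.37 and 6.73 on the BALB/c iNKT17 arrays and 7.18 and 6.95 on the B6 iNKT17 arrays, so that replicate 2 was its lowest, as it was for Zp1 (7.41, 7.40 and 7.95 in BALB/c iNKT17 cells). The BALB/c minus B6 estimate in iNKT17 cells was -1.20 for Gja1, -0.97 for Upp1, -0.76 for Zp1 and -0.54 for Cdh10, none of them past the threshold. These genes were picked for likeness to Cpe on the same arrays, so the estimates are description and carry no test. On BALB/c ROR- replicate 2 the genes nearest to Abi3bp stood higher than on the other arrays of that group, by 2.21 for Blk, 1.90 for Pram1, 1.89 for Il1r1 and 1.46 for Serpinb1a. Of the genes nearest to Cpe, Cdh10 stood 1.15 higher there, Slc15a3 1.10, Zp1 0.81 and Upp1 0.72, and Gja1 0.11 lower (-0.11). The part of that array's higher type 17 level in the Abi3bp and Slc15a3 values was not tested.

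**Figure D3:**
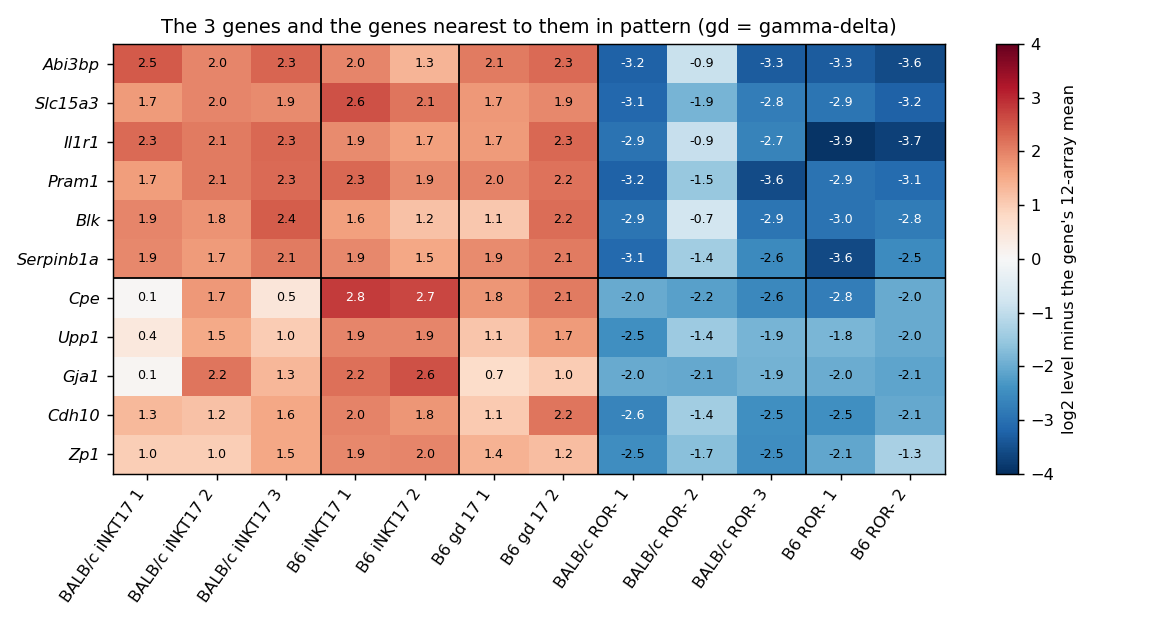
The 3 genes and the genes nearest to them in pattern (rows) on the 12 arrays (columns, gd for gamma-delta), as the log2 level minus the gene's 12-array mean. The upper block, with Abi3bp and Slc15a3, is paler on BALB/c ROR- replicate 2; in the lower block Cpe, Upp1 and Gja1 are palest on BALB/c iNKT17 replicate 1 among the iNKT17 arrays.

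The gene of the binding partner of Abi3bp, Abi3, was higher in type 17 cells. Abi3 measured 8.80, 8.96 and 9.14 on the BALB/c iNKT17 arrays and 8.98 and 8.50 on the B6 iNKT17 arrays, against 7.11, 7.46 and 6.98 on the BALB/c ROR- arrays and 7.19 and 6.87 on the B6 ROR- arrays. The groups did not overlap, and iNKT17 minus ROR- cells was 1.75 ± 0.13 (adjusted p = 3.77e-06). Gamma-delta 17 cells, at 8.80 and 8.73, exceeded B6 ROR- cells by 1.73 ± 0.21 (adjusted p = 0.000316). Of 11 tested genes of the ABI proteins and the WAVE complex, 2 rose in iNKT17 cells and none fell (1 was lower at an unadjusted p under 0.05): Abi3 and Nckap1, a core subunit of the complex (0.74 ± 0.09, adjusted p = 0.000115). The list median was 0.05, against 0.00 over all genes tested, of which 6.49% rose and 5.81% fell.

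Of 15 tested genes with fibronectin type III domains or matricellular products, none passed limma's test in iNKT17 minus ROR- cells as the mean of both strains (3 had an unadjusted p under 0.05), and their median difference was -0.01. In BALB/c alone 1 passed, Lgals3, which encodes galectin-3, higher by 0.67 ± 0.15 (adjusted p = 0.0159), with an adjusted p of up to 0.0658 when BALB/c iNKT17 replicate 2 or 3 or BALB/c ROR- replicate 1 was left out. In B6 its difference was -0.19 ± 0.18 (adjusted p = 0.731), and the interaction of 0.86 did not pass (adjusted p = 0.554). Fibronectin itself, Fn1, averaged 3.20 in BALB/c and 3.18 in B6 iNKT17 cells, against 3.32 in BALB/c and 3.43 in B6 ROR- cells, all below the dim level. Among 16 matrix-binding integrin genes, 2 rose and 6 fell, with a median of -0.05; of all genes, 6.49% rose and 5.81% fell. Those that rose were Itgb5, whose product pairs with the alpha v chain to bind vitronectin (3.13 ± 0.12, adjusted p = 4.38e-08), and Itga5, the fibronectin receptor chain (1.42 ± 0.08, adjusted p = 5.60e-07). Itga4 (-1.58 ± 0.31, adjusted p = 0.00533) and the collagen receptor chain Itga1 (-1.29 ± 0.10, adjusted p = 4.16e-06) fell most, and Itga1 lay around the dim level in iNKT17 cells.

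Itgb5 was higher on every type 17 array than on any ROR- array. It measured 8.55, 8.87 and 8.65 on the BALB/c iNKT17 arrays and 8.88 and 8.95 on the B6 iNKT17 arrays, against 5.60, 6.13 and 5.77 on the BALB/c ROR- arrays and 5.63 and 5.39 on the B6 ROR- arrays. Gamma-delta 17 cells were like iNKT17 cells in direction: over B6 ROR- cells Itgb5 rose by 3.07 ± 0.18 (adjusted p = 4.0e-06) and Itga5 by 1.76 ± 0.13 (adjusted p = 1.24e-05), 2 of 16 integrin genes higher and 4 lower, where 2.61% of all genes were higher and 3.41% lower. Itgb3, the other well-known partner of alpha v, went the other way, at most 9.39 on the iNKT17 arrays and at least 9.46 on the ROR- arrays. In B6 iNKT17 minus ROR- cells the Itgb3 difference was -1.19 ± 0.17 (limma, adjusted p = 0.00114). Within iNKT17 cells Itgb3 averaged 9.28 in BALB/c and 8.42 in B6. It was higher in BALB/c by 0.87 ± 0.15 (adjusted p = 0.0162), but adjusted p was 0.0700 with BALB/c iNKT17 replicate 3 left out, and the call also failed without B6 iNKT17 replicate 1 (0.113) or B6 iNKT17 replicate 2 (0.134).

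Of the other carboxypeptidase genes, the one with the largest iNKT17 minus ROR- difference was Cpd, whose product removes the same basic residues in the trans-Golgi network. Cpd measured 9.98, 10.05 and 10.04 on the BALB/c iNKT17 arrays and 10.14 and 9.93 on the B6 iNKT17 arrays, against 6.80, 7.51 and 6.55 on the BALB/c ROR- arrays and 6.46 and 6.51 on the B6 ROR- arrays. The groups lay more than 2 log2 units apart, and iNKT17 minus ROR- cells was 3.31 ± 0.16 (adjusted p = 1.22e-07). In gamma-delta 17 cells Cpd was 9.69 and 9.87, a rise of 3.29 ± 0.24 over B6 ROR- cells (adjusted p = 1.24e-05). Of 16 listed genes of the M14 carboxypeptidase family other than Cpe, 13 were on the array and only 6 passed the filter on dim values: 2 rose in iNKT17 cells as the mean of both strains, Cpd and Cpm, and none fell, also at an unadjusted p (median 0.08). Among all genes tested, 6.49% rose and 5.81% fell.

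Cpm, a carboxypeptidase anchored at the cell surface, shared the strain difference of Cpe in direction. It measured 4.16, 3.76 and 3.80 on the BALB/c iNKT17 arrays and 5.48 and 5.58 on the B6 iNKT17 arrays, which did not overlap. BALB/c minus B6 in iNKT17 cells was -1.62 ± 0.17 (adjusted p = 0.000437), and this call held when any single array was left out. The BALB/c values lay close to the dim level of 3.45, so the size of the Cpm difference is uncertain. Cpd averaged 10.02 in BALB/c and 10.04 in B6 iNKT17 cells. Over ROR- cells, Cpm did not pass in BALB/c iNKT17 cells (-0.06 ± 0.15, adjusted p = 0.896), while in B6 iNKT17 cells it was higher by 1.08 ± 0.19 (adjusted p = 0.00432; 0.0549 without B6 ROR- replicate 1). The interaction of -1.14 did not pass (adjusted p = 0.208). The mean of both strains was 0.51 ± 0.12 (adjusted p = 0.0150), which did not pass without B6 iNKT17 replicate 2 (adjusted p = 0.0652) or B6 ROR- replicate 1 (adjusted p = 0.0820).

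The endoproteases that act before carboxypeptidase E were counted with other granule genes. Of 15 tested genes of prohormone processing and dense-core granules, 2 rose and 2 fell in iNKT17 over ROR- cells, with a median of -0.04 and, as above, 12.3% of all genes past the threshold. Furin, the convertase present in most cells, rose by 1.91 ± 0.18 (adjusted p = 2.32e-05) and averaged 9.31 in BALB/c and 9.54 in B6 iNKT17 cells, against 7.76 in BALB/c and 7.26 in B6 ROR- cells. Qpct, which forms pyroglutamate at peptide ends, fell by 0.93 (SE 0.19, adjusted p = 0.00585). The other 2 calls, Chga (0.31 ± 0.09, adjusted p = 0.0482) and the amidating enzyme gene Pam (-0.30 ± 0.08, adjusted p = 0.0381), were near the threshold. Chga lost its call without any 1 of 11 arrays, all but BALB/c iNKT17 replicate 2 (adjusted p up to 0.185, without B6 ROR- replicate 1). Pam lost it without any iNKT17 array, without BALB/c ROR- replicate 1 or 2 and without either B6 ROR- array (adjusted p up to 0.151, without B6 iNKT17 replicate 1).

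Pcsk1, the convertase of neuroendocrine granules, was low in gamma-delta 17 cells. It measured 4.0 and 4.37 on the gamma-delta 17 arrays, against 7.62 and 7.82 on the B6 ROR- arrays, a fall by 3.54 on the log2 scale (SE 0.48, adjusted p = 0.000868). The iNKT17 arrays gave 6.77, 7.06 and 6.51 in BALB/c and 5.83 and 6.49 in B6, and the iNKT17 minus ROR- difference of -0.81 did not pass (adjusted p = 0.131). Cpe averaged 7.68 in the gamma-delta 17 cells in which Pcsk1 was lowest. Scg5, a chaperone of granule convertases, averaged 5.79 in BALB/c and 3.75 in B6 iNKT17 cells, a difference of 2.04 ± 0.37 (adjusted p = 0.0173) opposite in sign to that of Cpe. In ROR- cells Scg5 was also higher in BALB/c, at 4.62, 5.66 and 5.25, against 3.78 and 3.66 in B6, a difference of 1.46 ± 0.37 that did not pass (adjusted p = 0.0989), and the interaction of 0.58 did not pass either (adjusted p = 0.999). The Scg5 call was lost when only the iNKT17 groups were fitted (adjusted p = 0.0835), without BALB/c iNKT17 replicate 1 (0.0685) or 3 (0.0808), and without B6 iNKT17 replicate 1 (0.0503) or 2 (0.281).

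Peptide precursors that carboxypeptidase E is known to process, and receptors for their products, were looked at as 1 list. Of 22 tested genes, 1 rose and 2 fell in iNKT17 over ROR- cells, where 12.3% of all genes passed, with a median of -0.04. Vipr1, a receptor for vasoactive intestinal peptide, fell by 1.52 (SE 0.12, adjusted p = 6.41e-06) and averaged 4.79 in BALB/c and 4.38 in B6 iNKT17 cells, against 6.25 in BALB/c and 5.97 in B6 ROR- cells. In gamma-delta 17 cells it also fell, by 1.12 (SE 0.19, adjusted p = 0.00390). The parts of the receptor for calcitonin gene-related peptide went opposite ways, Ramp1 higher by 0.53 ± 0.12 (adjusted p = 0.0120) and Calcrl lower by -0.72 ± 0.19 (adjusted p = 0.0295). Ramp1 lost its call without B6 iNKT17 replicate 1 (adjusted p = 0.0547) or B6 ROR- replicate 2 (0.0582), and Calcrl without replicate 2 of either iNKT17 group, BALB/c ROR- replicate 2 or 3 or either B6 ROR- array (adjusted p up to 0.130, without B6 iNKT17 replicate 2).

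Around Slc15a3, no other member of its family rose. Slc15a4, the other histidine transporter of endolysosomes, measured 5.65, 5.76 and 5.85 on the BALB/c iNKT17 arrays and 5.90 and 6.41 on the B6 iNKT17 arrays, against 5.65, 5.30 and 6.09 on the BALB/c ROR- arrays and 5.82 and 5.77 on the B6 ROR- arrays. The groups overlapped and the difference was 0.22 ± 0.16 (adjusted p = 0.487). Slc15a2, a peptide transporter of the plasma membrane, lay near the dim level, and Slc15a5 lay below it on every array. Between strains Slc15a2 was lower in BALB/c than in B6 ROR- cells (-0.86 ± 0.14, limma, adjusted p = 0.0106), where 1.22% of all genes passed. That call was lost without either of 2 arrays. Of 18 tested genes of the Slc15 family and of endolysosomal transport, only the sugar phosphate transporter gene Slc37a2 rose (0.76 ± 0.10, adjusted p = 0.000354) and none fell (1 was lower at an unadjusted p under 0.05), with a median of 0.03. Over all genes, 6.49% rose and 5.81% fell, so a count of 1 lies near that share.

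Most genes of the sensing that endolysosomal peptide transport is known to serve did not pass the threshold. Of 10 tested genes of endosomal and peptidoglycan sensing, none rose by limma's test (1 was higher at an unadjusted p under 0.05). In iNKT17 over ROR- cells 2 fell, with a median of -0.06, where 6.49% of all genes rose and 5.81% fell. Nod1, a cytosolic sensor of peptidoglycan, measured 4.79, 4.73 and 4.77 on the BALB/c iNKT17 arrays and 5.21 and 5.29 on the B6 iNKT17 arrays, against 6.52, 7.16 and 6.47 on the BALB/c ROR- arrays and 6.37 and 6.44 on the B6 ROR- arrays. It fell by 1.55 in iNKT17 cells (SE 0.13, adjusted p = 6.50e-06) and by 1.19 in gamma-delta 17 cells (SE 0.20, adjusted p = 0.00305). Irf7, an interferon-linked factor downstream of endosomal sensors, was lower by -0.47 ± 0.12 (adjusted p = 0.0214), but adjusted p was 0.0517 with BALB/c iNKT17 replicate 3 left out, and the call also failed without B6 iNKT17 replicate 2 (0.113), B6 ROR- replicate 1 (0.0810) or B6 ROR- replicate 2 (0.0593).

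Between B6 iNKT17 and gamma-delta 17 cells 0.168% of all genes passed. Tlr7, the endosomal receptor for single-stranded RNA, was the only gene of the 8 related lists called there. It averaged 6.72 ± 0.34 in B6 iNKT17 and 5.07 ± 0.55 in gamma-delta 17 cells (SD, n = 2 each), a difference of 1.65 ± 0.25 (adjusted p = 0.0251). The Tlr7 call failed without B6 iNKT17 replicate 1 (adjusted p = 0.174), B6 iNKT17 replicate 2 (0.101), gamma-delta 17 replicate 2 (0.0728) or either B6 ROR- array (0.0555 each), and when only these groups were fitted (0.297). In BALB/c iNKT17 cells Tlr7 averaged 6.53 ± 0.25 (n = 3). The B6 ROR- arrays gave 6.04 and 6.14, and gamma-delta 17 cells lay below them by 1.02 (SE 0.25, limma, adjusted p = 0.0324). That fall lost its call without any 1 of 3 arrays.

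**Figure D4:**
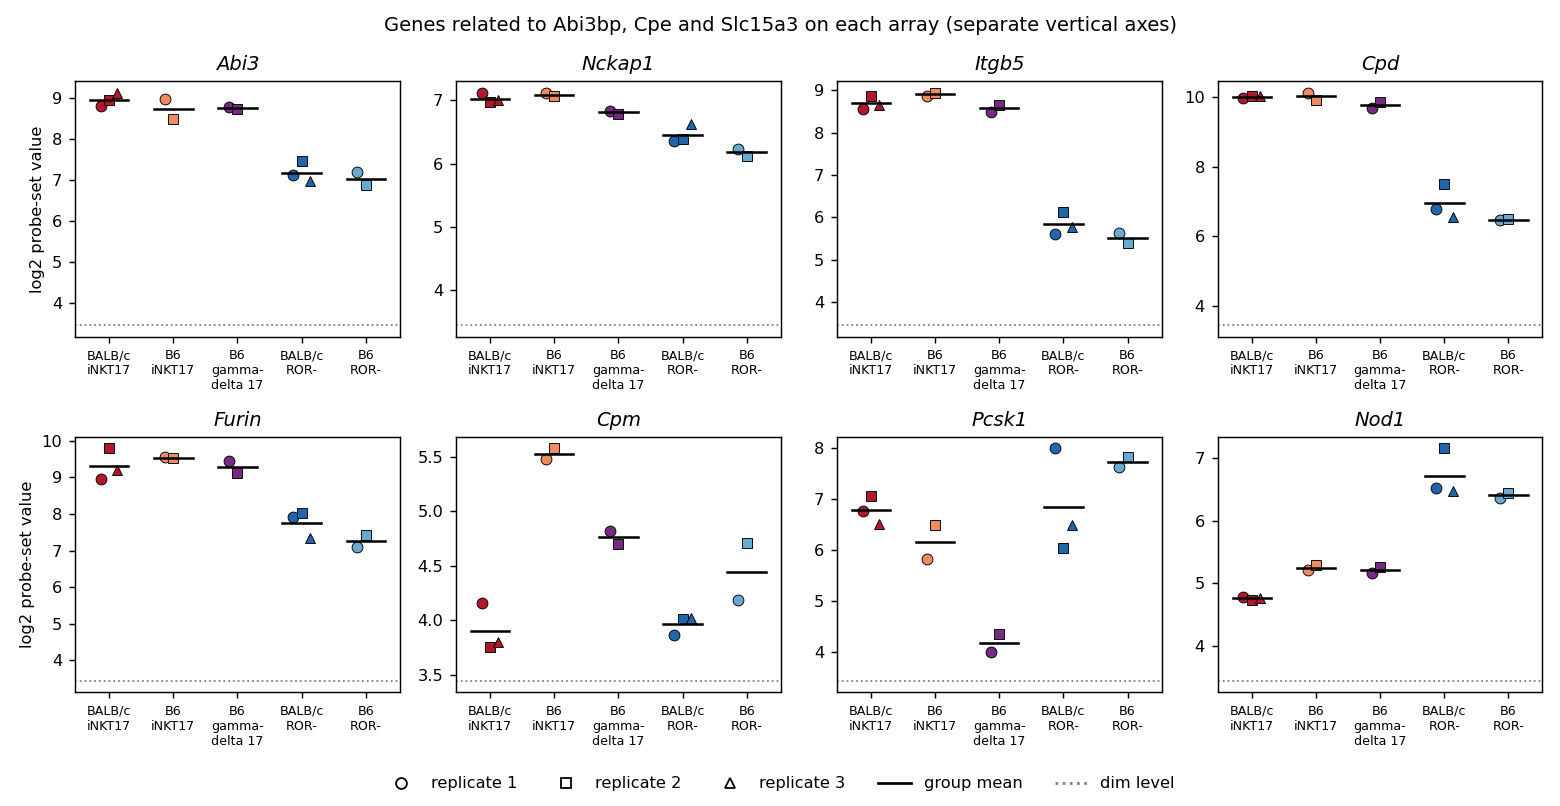
Level of 8 genes related to Abi3bp (Abi3, Nckap1, Itgb5), Cpe (Cpd, Furin, Cpm, Pcsk1) and Slc15a3 (Nod1) on each array (log2 probe-set value; vertical axes differ between panels), with group means as bars and the dim level dotted. Abi3, Nckap1, Itgb5, Cpd and Furin lie higher on the type 17 arrays and Nod1 lower; Cpm is lower in BALB/c than in B6 iNKT17 cells, and Pcsk1 is lowest in gamma-delta 17 cells (4.0 and 4.37).

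Genes beside the 3 on the chromosome were looked at next, as the 5 nearest protein-coding genes on each side in the RefSeq gene table of GRCm38.p6, used for gene order alone. Of these 30 genes, 27 were on the array and 19 were tested. In iNKT17 minus ROR- cells 5 rose and 1 fell, where 12.3% of all genes passed. Beside Cpe and Abi3bp no tested gene differed by 1 log2 unit or more: Msmo1, of sterol synthesis, rose by 0.90 ± 0.21 (adjusted p = 0.0142) and Tmem192 by 0.32 ± 0.09 (adjusted p = 0.0415) beside Cpe, and Tfg rose by 0.47 ± 0.13 (adjusted p = 0.0317) beside Abi3bp. Without B6 ROR- replicate 1 none of these 3 passed, with an adjusted p of 0.0824 for Msmo1, 0.142 for Tmem192 and 0.155 for Tfg, and without B6 iNKT17 replicate 2 it was 0.0578 for Msmo1, 0.146 for Tmem192 and 0.116 for Tfg. Tmem192 also failed without BALB/c iNKT17 replicate 1 or 3, B6 iNKT17 replicate 1, BALB/c ROR- replicate 1 or 2 or B6 ROR- replicate 2, and Tfg without any other iNKT17 array or BALB/c ROR- replicate 2.

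Of 9 tested neighbours of Slc15a3, 2 rose and 1 fell. Zp1, the fourth gene along, measured 7.41, 7.40 and 7.95 on the BALB/c iNKT17 arrays and 8.33 and 8.37 on the B6 iNKT17 arrays, against 3.93, 4.73 and 3.93 on the BALB/c ROR- arrays and 4.34 and 5.10 on the B6 ROR- arrays. It rose by 3.51 ± 0.20 in iNKT17 cells (adjusted p = 3.78e-07) and by 2.99 ± 0.30 in gamma-delta 17 cells (adjusted p = 9.78e-05). Tmem132a, directly beside Slc15a3, rose by 1.13 ± 0.17 in iNKT17 cells (adjusted p = 0.000702).

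On the other side lie Cd6 and Cd5, a pair of related T cell surface receptors that dampen antigen receptor signals. Cd5 averaged 8.48 in BALB/c and 8.49 in B6 iNKT17 cells, against 9.81 in BALB/c and 9.78 in B6 ROR- cells, a fall by 1.31 (SE 0.11, adjusted p = 8.33e-06). Cd6, the gene directly beside Slc15a3, did not pass in iNKT17 cells (-0.32 ± 0.16, adjusted p = 0.268) but fell by 1.47 in gamma-delta 17 cells (SE 0.26, adjusted p = 0.00435). The remaining neighbours on the array, among them Tmem109 and Prpf19 between Tmem132a and Zp1, did not pass. None of the 19 neighbours was called by limma between strains, in the interaction, or between B6 iNKT17 and gamma-delta 17 cells, and at an unadjusted p under 0.05 there was 1 between strains in iNKT17 cells, 1 between B6 iNKT17 and gamma-delta 17 cells and 0 elsewhere.

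**Figure D5:**
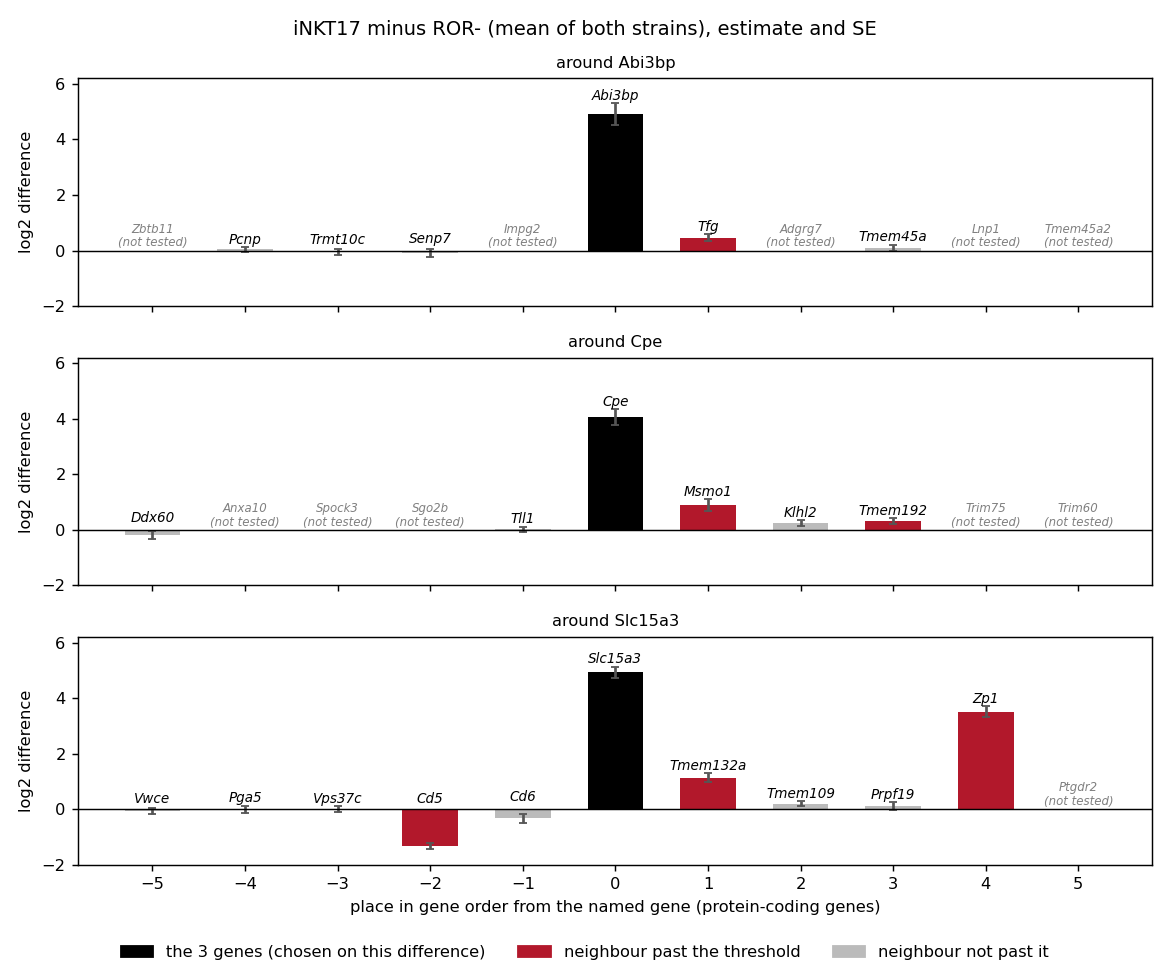
The log2 difference of iNKT17 minus ROR- cells, as the mean of both strains (limma estimate, bars; SE, whiskers), for each of the 3 genes (black) and the 5 protein-coding genes on each side in gene order (horizontal axis, place from the named gene). Zp1 at 3.51, Tmem132a at 1.13 and Cd5 at -1.31 stand out beside Slc15a3, while genes beside Abi3bp and Cpe stay under 1 log2 unit.

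Markers of the cell types in which these 3 genes are best known were summed on each array. Of 12 fibroblast and stromal markers, 9 lay above the dim level on every array of each group, and the summed linear level of the 12 ranged from 226 to 261 on the iNKT17 and gamma-delta 17 arrays, against 229 to 286 on the ROR- arrays, with Dcn, Lum and Pdgfra below the dim level on every array. The sum of 15 macrophage and dendritic cell markers was 434 to 512 in BALB/c iNKT17, 323 to 338 in B6 iNKT17 and 350 to 479 in gamma-delta 17 cells, against 401 to 421 in BALB/c ROR- and 309 to 378 in B6 ROR- cells. Of these 15 markers 9 to 11 lay above the dim level on every array of a group, and C1qc on none. The sum of 8 neuroendocrine markers, of which 2 or 3 lay above the dim level on every array of a group, was 104 to 125 on the iNKT17 and gamma-delta 17 arrays, against 96.5 to 115 on the ROR- arrays, and Chgb, Neurod1 and Gcg lay below the dim level on every array. Within BALB/c the macrophage sums, given above, did not overlap between iNKT17 and ROR- cells, nor did the neuroendocrine sums, 116 to 120 in iNKT17 against 109 to 115 in ROR- cells. In gamma-delta 17 cells the neuroendocrine sums were 121 to 125, against 96.5 to 105 in B6 ROR- cells. The part of such markers in the results was not tested.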

How the data were processed

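RNA of 12 mouse samples in 5 groups, 1 Affymetrix array each, was analysed from 1 table of 41345 probe sets that the authors deposited on a log2 scale. The values came from oligo, per the submitters' processing notes. No label or header used here states its version, the summarisation, the normalization or the log base, and base 2 was assumed. Per the labels, samples were grouped by strain and cell phenotype. Replicates are not said to come from separate animals, so p-values measure spread among these 12 arrays alone, and that spread may be technical.

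Gene symbols of probe sets came from GEO's platform annotation (23521 with 1 symbol, 1814 with several, 16010 with none given here), keeping the brightest probe set of each of 22180 genes. Genes above the dim level of 3.45, the 30th percentile of named probe sets, on at least 2 arrays were tested (16667), and 5513 were not; all 3 members passed, but each is high in most groups, so that says nothing about them. Group means of all 12 arrays were fitted with limma 3.58.1 in R 4.3.3 (lmFit and eBayes; 7 residual and 4.50 prior degrees of freedom), with Benjamini-Hochberg adjustment over all genes tested and a threshold of 0.05. On simulated data for the BALB/c minus B6 comparison in iNKT17 cells over 16667 genes, 35 of 50 genes changed by 1 log2 unit were recovered, 49 of 50 changed by 2, and 50 of 50 changed by 3 or by 4, with 10 false calls. The simulated noise was independent between genes and between arrays, and no simulated array stood apart, so these rates need not hold for the real arrays. The number of arrays, 2 or 3 in a group, limits precision.

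Members, gene lists and tests were chosen with earlier results of these data known. Named genes were the members, the 5 genes nearest to each in pattern (predicted and clone-named genes left out), up to 4 called members of each related list by size, 5 neighbours on each side, and a set of anchors; Fn1, Slc15a2 and Slc15a5 were named after their values were seen. One anchor gene is not reported here. Alternatives changed the scaling, the filter, the variance model, the groups fitted, the replicate block and the probe set rule, and left out each array in turn.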

Additional observations from a re-analysis of the deposited data

How the results depend on the processing

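Over 20 alternatives, every member difference kept its direction except those below, and no other call of a member changed. Cpe in BALB/c minus B6 iNKT17 cells kept -1.97 but lost its call with a trended, robust variance (adjusted p = 0.0504) and with only the iNKT17 groups (0.127), and with 1 array left out it ranged from -2.46 to -1.62. With the replicate block it was -1.83 (adjusted p = 0.0419). Replicate numbers did not pair the samples: deviations of same-numbered arrays correlated at 0.019 on average (lowest -0.46), so the block is reported here alone. With 1 array left out, Cpe in BALB/c minus B6 ROR- cells ranged from -0.23 (without B6 ROR- replicate 1) to 0.52, the Cpe interaction from -2.60 (past the threshold) to -1.74, the Abi3bp interaction from -0.79 to 0.43, and Abi3bp in BALB/c iNKT17 minus ROR- cells from 4.31 to 5.53; the cause was not tested.

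Genes past the threshold in the interaction numbered 14, but 9 with arrays centred on their median, 9 after quantile normalization, 6 with the replicate block, and 0 to 15 with 1 array left out; at the lowest, without B6 ROR- replicate 2, limma still gave 673 genes an unadjusted p under 0.05. The other counts with 1 array left out ran from 77 to 531 for BALB/c minus B6 in iNKT17 (247 with all arrays), from 62 to 259 in ROR- cells (203), from 5 to 58 for B6 iNKT17 minus gamma-delta 17 (28), from 524 to 1151 for gamma-delta 17 minus ROR- (1003) and from 1336 to 2051 for iNKT17 minus ROR- (2051). With only the groups compared, 82 genes passed between strains in ROR- cells and 2 between B6 iNKT17 and gamma-delta 17 cells, in fits with fewer arrays. Of 111 calls of other named genes, 83 held under every alternative, 28 were lost under at least 1 and 0 reversed. Median centring moved the median of all genes in B6 iNKT17 minus gamma-delta 17 to 0.12, against 0.01 as deposited.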

Other observations

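In gamma-delta 17 cells the genes related to the 3 members gave further calls over B6 ROR- cells, in a comparison where 6.02% of all genes passed. Of 15 tested genes of prohormone processing, 2 rose and 2 fell: Furin rose by 2.02 ± 0.28 (limma, adjusted p = 0.000968) and Chga, which encodes chromogranin A, by 0.80 ± 0.14 (adjusted p = 0.00473), while Pcsk1 fell and Qpct fell by 2.01 (SE 0.29, adjusted p = 0.00122). Chga did not hold without B6 ROR- replicate 1 (adjusted p = 0.0561). Itgb3 fell by 1.51 (SE 0.17, adjusted p = 0.000205), and Itga1 by 0.89 (SE 0.15, adjusted p = 0.00406). Of 6 tested carboxypeptidase genes 1 rose, Cpd, and of 15 tested genes with fibronectin type III domains or matricellular products 0 passed limma's test, with 4 at an unadjusted p under 0.05. Among 10 tested genes of endosomal and peptidoglycan sensing, none rose and 3 fell: Nod1, Tlr7 and Irf7. The Irf7 fall of 0.71 (SE 0.18, adjusted p = 0.0438) lost its call without any 1 of 8 arrays.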
